A study of Mus musculus with 7 samples.

Results

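The miR-17-92 and miR-106b-25 clusters were followed across 7 small RNA libraries of mouse testis. The members were all rows of the deposited miRNA table named miR-17, miR-18a, miR-19a, miR-19b, miR-20a, miR-92a, miR-106b, miR-93 or miR-25, which gave 13 of the 331 listed mature miRNAs. Of these, 9 are treated here as the main arms of their hairpins, a choice by name that went against the read counts for miR-106b (miR-17-5p, miR-18a-5p, miR-19a-3p, miR-19b-3p, miR-20a-5p, miR-92a-3p, miR-106b-5p, miR-93-5p and miR-25-3p). The other 4 were the opposite arms miR-17-3p, miR-25-5p, miR-92a-1-5p and miR-106b-3p. The rule used names and no measured value, though the clusters were picked with earlier results of these data known. In T6, mmu-miR-25-3p (here without the species prefix) had 22146 reads and its partner arm mmu-miR-25-5p 644.

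All animals were CD1 mice, an outbred strain, and each condition was sequenced once. T6 and T10 were testes taken at 6.5 and 10.5 days post-partum (dpp) and not cultured (the labels also give these ages as 6 and 10 dpp). T6-12K and T6-12A were explants of 6.5 dpp testes kept for 12 days at a gas-liquid interface over agarose, in medium supplemented with KSR, a serum replacement, or with AlbuMAX I, a lipid-rich bovine serum albumin. T10-12K and T10-12A were the corresponding cultures of 10.5 dpp testes, and TAD was uncultured testis of an adult of 2 months. The labels of the uncultured libraries speak of a single mouse each, and those of the cultures do not give the number of animals or explants.

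Animal miRNAs are cut from hairpins in longer transcripts. Each hairpin can release a miRNA from either arm (5p or 3p), one of which is usually retained while the other is degraded. Target choice depends mainly on the seed, the bases from position 2 to 8. The miR-17-92 cluster is made as a single long non-coding RNA and is known as a driver of proliferation and survival in lymphoid and other tissues, with the pro-apoptotic gene Bcl2l11 among its best studied targets. The miR-106b-25 cluster lies within Mcm7, which encodes a subunit of the replicative helicase. In the testis both clusters are known to be expressed in spermatogonia.

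The mature sequences of the 9 main arms are printed to show why they are read as 4 families. The sequences are those of RefSeq on GRCm38.p6, to which all 13 members could be matched by name, and the capitals mark the seed.
miR-25-3p: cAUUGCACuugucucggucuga
miR-92a-3p: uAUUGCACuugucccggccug
miR-93-5p: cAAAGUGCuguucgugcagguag
miR-106b-5p: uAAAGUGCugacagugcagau
miR-17-5p: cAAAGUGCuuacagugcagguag
miR-20a-5p: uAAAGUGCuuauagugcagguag
miR-18a-5p: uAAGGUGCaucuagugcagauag
miR-19a-3p: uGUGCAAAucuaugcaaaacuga
miR-19b-3p: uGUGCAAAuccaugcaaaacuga

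The seeds cut across the clusters. miR-25-3p of one cluster and miR-92a-3p of the other shared a seed, and so did miR-93-5p and miR-106b-5p with miR-17-5p and miR-20a-5p. miR-19a-3p and miR-19b-3p differed at 1 of 23 positions over their whole length, and miR-17-5p and miR-20a-5p at 2, and how reads matching more than 1 of them were counted is not given in the sources used here, so the division of reads within these pairs is uncertain.

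The 6 hairpins of miR-17-92 lay within 836 bases of chromosome 14 (GRCm38.p6, chr14:115043671-115044506, plus strand), in an exon of the non-coding host gene Mir17hg. The 3 hairpins of miR-106b-25 lay within 498 bases of chromosome 5 (chr5:138165321-138165818, minus strand), inside Mcm7 on the same strand. Mir106b overlapped no annotated exon of Mcm7, and Mir25 and Mir93 overlapped an exon only in 1 annotated transcript of the gene. miR-19b-3p and miR-92a-3p were also encoded a second time on chromosome X (chrX:52741838-52742066, minus strand), so their values summed what came from both places. The remaining miRNAs of that X-linked cluster, miR-106a-363, served as a comparison, and 0 of the 8 on the list were present in the table. One of them, miR-106a-5p, differs from miR-17-5p at 1 position.

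The deposited values were reads divided by 1 factor per library. The reads were recovered from them and are given as CPM, reads scaled to a common total over the 331 listed miRNAs of the same library. Reads on listed miRNAs ranged from 1628770 in TAD to 13397407 in T10. The number for TAD takes 1 read as 3.19 deposited units, the largest step of which all 244 values below 10000 reads were whole multiples. A step of 1.06 would give 4886310 reads, each value then being a multiple of 3 reads, and would narrow the intervals of TAD but leave its CPM as they are. The single most abundant miRNA, miR-10b-5p, took between 31.2% and 54.4% of the reads of a library. With 1 library per condition no difference could be tested against the spread between animals. All intervals are 95% intervals of counting error alone, and 2-fold was used as a threshold of size, to be met in every pair of libraries compared. In a whole testis, fewer cells of a type and less of a miRNA per cell cannot be told apart.

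Together the 13 miRNAs took 0.422% of listed miRNA reads in T6 and 0.465% in T10. In culture they took 0.148% with KSR and 0.256% with AlbuMAX I from 6.5 dpp, and 0.204% and 0.250% from 10.5 dpp. In TAD their share was 0.518%. The 4 cultures thus held the lowest shares and the adult testis the highest. The total behind these shares includes miR-10b-5p, which took 46.0% of it in T6, 44.6% in T10 and 31.2% in TAD. The top place of the adult testis depends on counting miR-10b-5p in that total. miR-25-3p was the most abundant member on average (1177 CPM), followed by miR-92a-3p (933), miR-19b-3p (430) and miR-93-5p (409), and these were the 4 that averaged 100 CPM or more. miR-17-5p, after which the larger cluster is named, averaged far less, and miR-18a-5p was the lowest main arm at 5.79 CPM. All the members had 21 to 23 bases, so CPM were not divided by length.

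**Figure D1:**
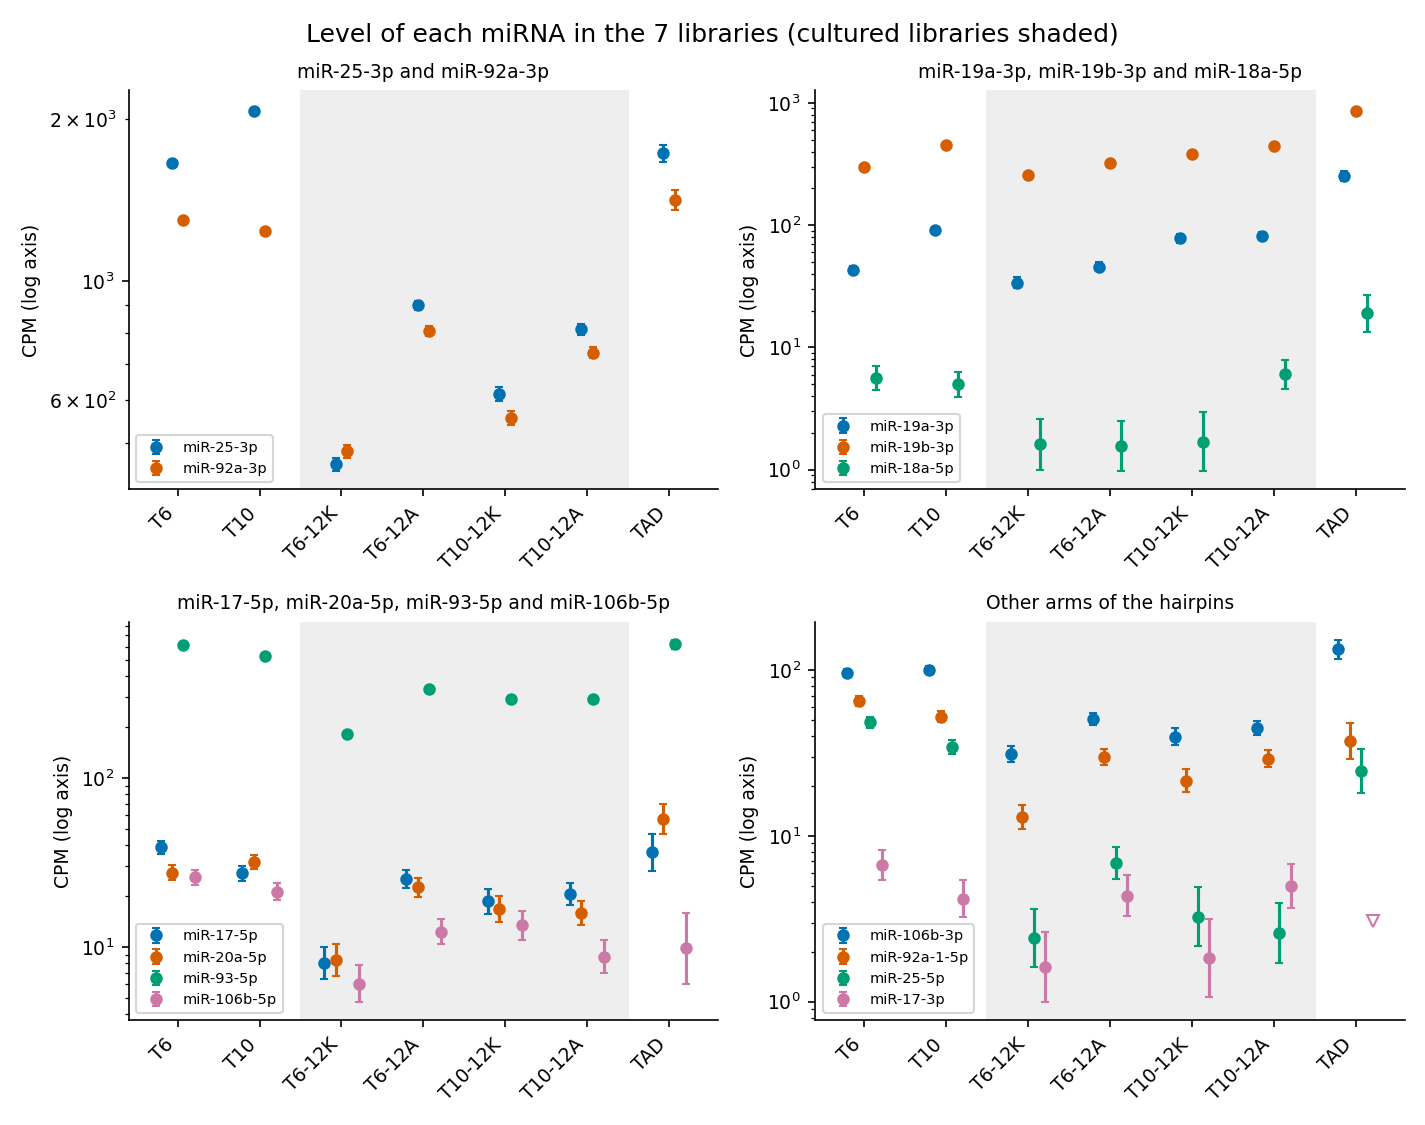
CPM of the 13 miRNAs (log axis) in each of the 7 libraries, with 1 library per condition, 95% Wilson intervals of counting error as bars, and the 4 cultured libraries shaded. The open triangle marks miR-17-3p in TAD, listed at 0, at the worth of 5 reads. The miR-25-3p and miR-92a-3p points drop in the shaded libraries, whereas the miR-19a-3p and miR-19b-3p points stand highest in TAD.

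miR-25-3p, the member with the most reads, stood at 1657 CPM in T6 and 2067 in T10, 455 (T6-12K), 901 (T6-12A), 615 (T10-12K) and 813 (T10-12A) in culture, and 1728 in TAD. Every culture lay below every uncultured testis. Each step in the order from T6-12K up to T10 exceeded counting error, the smallest being that from T6 to TAD, a log2 difference of 0.06 (0.0035 to 0.12).

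miR-92a-3p, which has the same seed, followed the same course, with 1297 CPM in T6 and 1237 in T10, 482 (T6-12K), 807 (T6-12A), 555 (T10-12K) and 735 (T10-12A) in culture, and 1414 in TAD. Again the cultures did not overlap the uncultured libraries. Across the 7 libraries the log2(CPM + 1) of both miRNAs had a correlation of r = 0.980, although they belong to different clusters on different chromosomes. The 7 points share a common scale and are given as a description only.

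miR-93-5p, the second member of the Mcm7 cluster, had 613 CPM in T6 and 526 in T10, 182 (T6-12K), 335 (T6-12A), 292 (T10-12K) and 292 (T10-12A) in culture, and 621 in TAD. Both 10.5 dpp cultures were alike within counting error, as were T6 and TAD. miR-106b-5p, with the same seed, was much less abundant, at 25.8, 21.2, 6.04, 12.3, 13.4, 8.75 and 9.82 CPM in the same order. Unlike miR-93-5p it was low in TAD, where only 16 reads were counted and the level could not be told apart from that of any culture.

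Of the chromosome 14 members of this family, miR-17-5p stood at 38.9 CPM in T6 and 27.2 in T10, 8.05 (T6-12K), 25.2 (T6-12A), 18.7 (T10-12K) and 20.6 (T10-12A) in culture, and 36.2 in TAD. The neighbouring miR-20a-5p stood at 27.5, 31.9, 8.35, 22.5, 16.8, 15.9 and 57.1 CPM. The cultures lay below all uncultured libraries for both, but the step from T6-12A to T10 in miR-17-5p was within counting error. The library on top differed, being T6 for miR-17-5p and TAD for miR-20a-5p.

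The miR-19 pair behaved differently. miR-19b-3p stood at 298 CPM in T6 and 453 in T10, 258 (T6-12K), 321 (T6-12A), 383 (T10-12K) and 445 (T10-12A) in culture, and 852 in TAD. miR-19a-3p stood at 42.9 CPM in T6 and 92.0 in T10, 33.8 (T6-12K), 45.9 (T6-12A), 78.2 (T10-12K) and 81.4 (T10-12A) in culture, and 253 in TAD. Each culture stayed close to the testis it was started from, and TAD was above every other library beyond counting error. Their r with each other was 0.994, whereas with miR-25-3p it was 0.530 for miR-19b-3p and 0.509 for miR-19a-3p.

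miR-18a-5p was the scarcest main arm, with 75 reads in T6 and 67 in T10, 16 (T6-12K), 17 (T6-12A), 12 (T10-12K) and 51 (T10-12A) in culture, and 31 in TAD. In CPM these were 5.61, 5.00, 1.61, 1.57, 1.70, 6.03 and 19.0. T10-12A was level with T6 and T10 within counting error, while the other 3 cultures formed a lower group whose members did not differ beyond it.

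Between 6.5 and 10.5 dpp, when the first spermatogonia of the mouse enter meiosis, the members moved apart rather than together. miR-19a-3p was 2.15-fold higher in T10 than in T6, a log2 ratio of 1.10 (0.96 to 1.24), and it alone reached 2-fold, whereas 0 members were lower by 2-fold. Over all 326 miRNAs tested, 11.0% were higher and 4.29% lower, so 1 of 13 is near the background. miR-19b-3p was 1.52-fold higher (log2 0.61, 0.55 to 0.66) and miR-25-3p 1.25-fold higher (0.32, 0.29 to 0.34). In contrast, miR-17-5p was 1.43-fold lower (-0.51, -0.71 to -0.32). The median over the 13 was -0.17, against -0.06 for all miRNAs with reads in both. The sign was kept in each of 6 other settings of scale and pseudocount for 12 members, and it turned for miR-92a-3p.

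In the adult testis, compared with the mean of T6 and T10, the members went in different directions. miR-19a-3p was 3.75-fold higher in CPM (log2 1.91, 1.75 to 2.06) and miR-18a-5p 3.59-fold higher (1.84, 1.28 to 2.40), and both reached 2-fold against T6 and T10 alike. Both remained higher in the other scalings but turned lower when reads were compared without scaling. This turn rests on the step taken for TAD, since at the finer step, tried after seeing the data, the unscaled log2 ratios were 0.45 and 0.39. miR-19b-3p was 2.27-fold higher than the mean, but below 2-fold against T10 alone. miR-106b-5p was 2.39-fold lower (-1.26, -1.97 to -0.54) and was lower in every scaling. In all, 2 members were higher and 1 lower, where 16.6% of all miRNAs were higher and 30.2% lower. Both counts depend on the scaling, since with median-of-ratios size factors they were 4 and 0, where 19.0% of all miRNAs were higher and 26.6% lower, and with the values as deposited 1 and 4, where 8.76% were higher and 47.4% lower.

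The scaling could be left out by relating members to each other within a library. For 100 reads of miR-92a-3p there were 3.31 reads of miR-19a-3p in T6 and 7.44 in T10, 7.01 (T6-12K), 5.68 (T6-12A), 14.1 (T10-12K) and 11.1 (T10-12A) in culture, and 17.9 in TAD. T6 was the lowest and TAD the highest of the 7, and each of the cultures started at 10.5 dpp lay above each started at 6.5 dpp. For miR-19b-3p the same ratio was 22.9 in T6 and 36.6 in T10, 53.6 (T6-12K), 39.7 (T6-12A), 69.0 (T10-12K) and 60.5 (T10-12A) in culture, and 60.2 in TAD. Here each culture was above the testis it came from, and T10-12A was level with the adult testis within counting error. Since miR-19b-3p and miR-92a-3p each have a copy on chromosome X as well, the chromosome 14 members were also compared alone. There were 110 reads of miR-19a-3p for 100 of miR-17-5p in T6, and 338 in T10. The same ratio was 420 (T6-12K), 182 (T6-12A), 419 (T10-12K) and 395 (T10-12A) in culture and 698 in TAD, where it rested on 59 reads of miR-17-5p (interval 532 to 917). The ratio of these miRNAs, which are cut from a single transcript, thus spanned from 110 to 698.

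Of the pairs without a miR-19, some varied less than the ratios with a miR-19 given above. That of the scarce miR-18a-5p to miR-17-5p varied more than any of those ratios. For 100 reads of miR-25-3p there were from 59.9 (T10) to 90.5 (T10-12A) reads of miR-92a-3p in 6 libraries, while T6-12K was the only one with more reads of miR-92a-3p (4790) than of miR-25-3p (4524). There were between 25.5 (T10) and 47.5 (T10-12K) of miR-93-5p. T10, the library with the highest miR-25-3p, was the lowest for both. For 100 reads of miR-17-5p, those of miR-20a-5p numbered 70.8 (T6) to 158 (TAD). Among these pairs the widest range was that of the scarce miR-18a-5p, with 6.25 reads per 100 of miR-17-5p in T6-12A and 52.5 in TAD, and miR-106b-5p ranged from 0.569 in TAD to 2.18 in T10-12K per 100 of miR-25-3p.

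**Figure D2:**
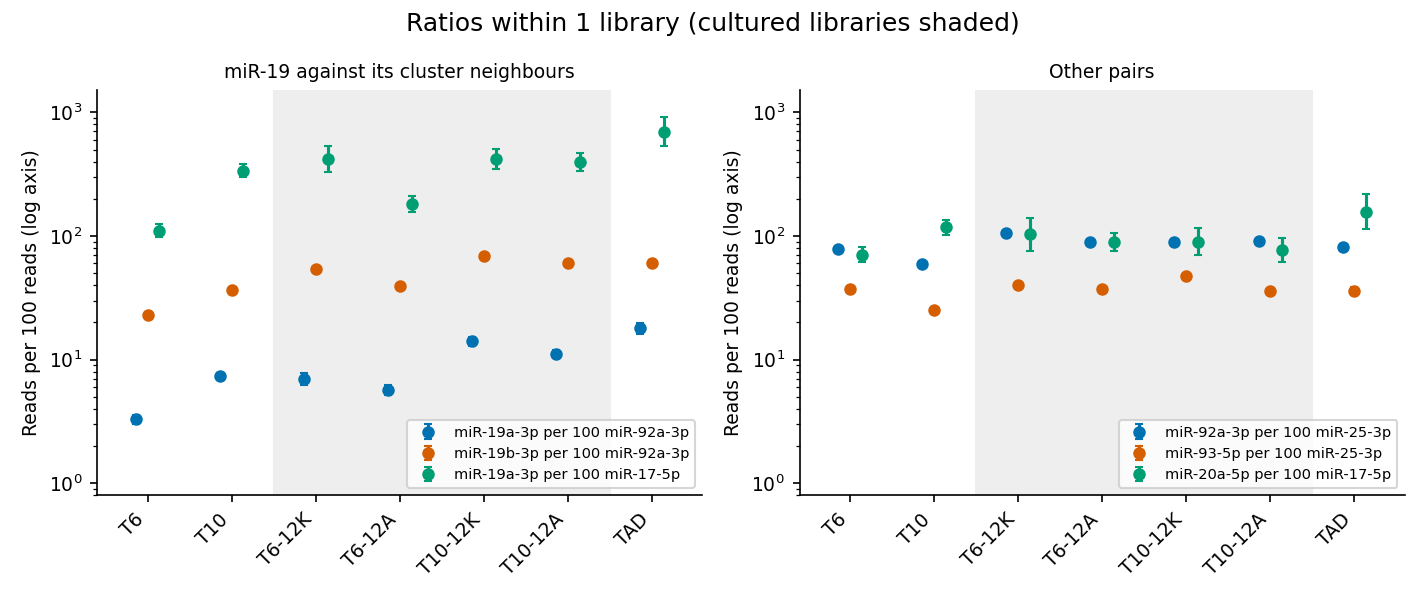
Reads of one member per 100 reads of another in the same library (log axis), with 95% intervals of counting error and the cultured libraries shaded. The 3 series of the left panel are lowest in T6, and both miR-19a-3p series are highest in TAD (17.9 per 100 miR-92a-3p and 698 per 100 miR-17-5p), while the 3 pairs drawn in the right panel span narrower ranges than these.

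After 12 days of culture the 6.5 dpp testes held less of most members. miR-25-3p was 2.44-fold lower than in T6 on the mean of both media (log2 -1.29, -1.32 to -1.26), miR-93-5p 2.37-fold lower (-1.25) and miR-92a-3p 2.01-fold lower (-1.01). None of these reached 2-fold in both media, since T6-12A lay closer to T6. By that measure miR-106b-5p, miR-18a-5p, miR-25-5p and miR-92a-1-5p were lower and 0 members were higher. This was 4 of 13 where 32.1% of all miRNAs were lower and 8.18% higher, a share near the background. For miR-19b-3p the mean (-0.04) joined -0.20 in T6-12K (-0.27 to -0.13) and 0.11 in T6-12A (0.042 to 0.17). For miR-19a-3p (-0.11) it joined -0.34 (-0.54 to -0.15) and 0.10 (-0.077 to 0.27), and the sign of both means turned with the scaling.

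The 10.5 dpp testes gave a similar picture. miR-25-3p was 2.89-fold lower than in T10 (-1.53, -1.57 to -1.50), and it was lower by 2-fold in both media, together with miR-106b-3p (-1.25) and miR-25-5p (-3.55). These were 3 of 13, and 0 were higher, where 32.3% of all miRNAs were lower and 7.85% higher. miR-93-5p was 1.80-fold lower (-0.85) and miR-92a-3p 1.92-fold lower (-0.94). miR-19a-3p and miR-19b-3p were only 1.15-fold and 1.09-fold lower, and the sign of these, of miR-17-5p, miR-18a-5p and miR-17-3p turned with the scaling.

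How far a member was lower in culture depended on the scaling, which moved all miRNAs together. For the 6.5 dpp cultures the median of all miRNAs with reads in each library involved was -0.90 in CPM, -0.24 with median-of-ratios size factors and -0.09 under trimmed-mean (TMM) scaling. For the 10.5 dpp cultures it was -0.73, -0.17 and -0.18. Set against this median, miR-25-3p stood at -0.39 at 6.5 dpp and -0.80 at 10.5 dpp, and miR-25-5p at -2.47 and -2.82. Relative to the same median, miR-19a-3p stood at 0.80 and 0.53 and miR-19b-3p at 0.86 and 0.60, that is, higher than the typical miRNA. Over 6 scalings these relative values hardly moved, miR-25-3p ranging from -0.41 to -0.37 and from -0.80 to -0.79. miR-19a-3p ranged from 0.79 to 0.83 and from 0.52 to 0.53. This was fixed in advance, since a scaling is 1 divisor per library and moves the median along with each miRNA. It therefore adds no support to these values. The median of the 13 members lay 0.33 below that of all miRNAs at 6.5 dpp (-1.23 against -0.90) and 0.20 below at 10.5 dpp (-0.93 against -0.73).

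**Figure D3:**
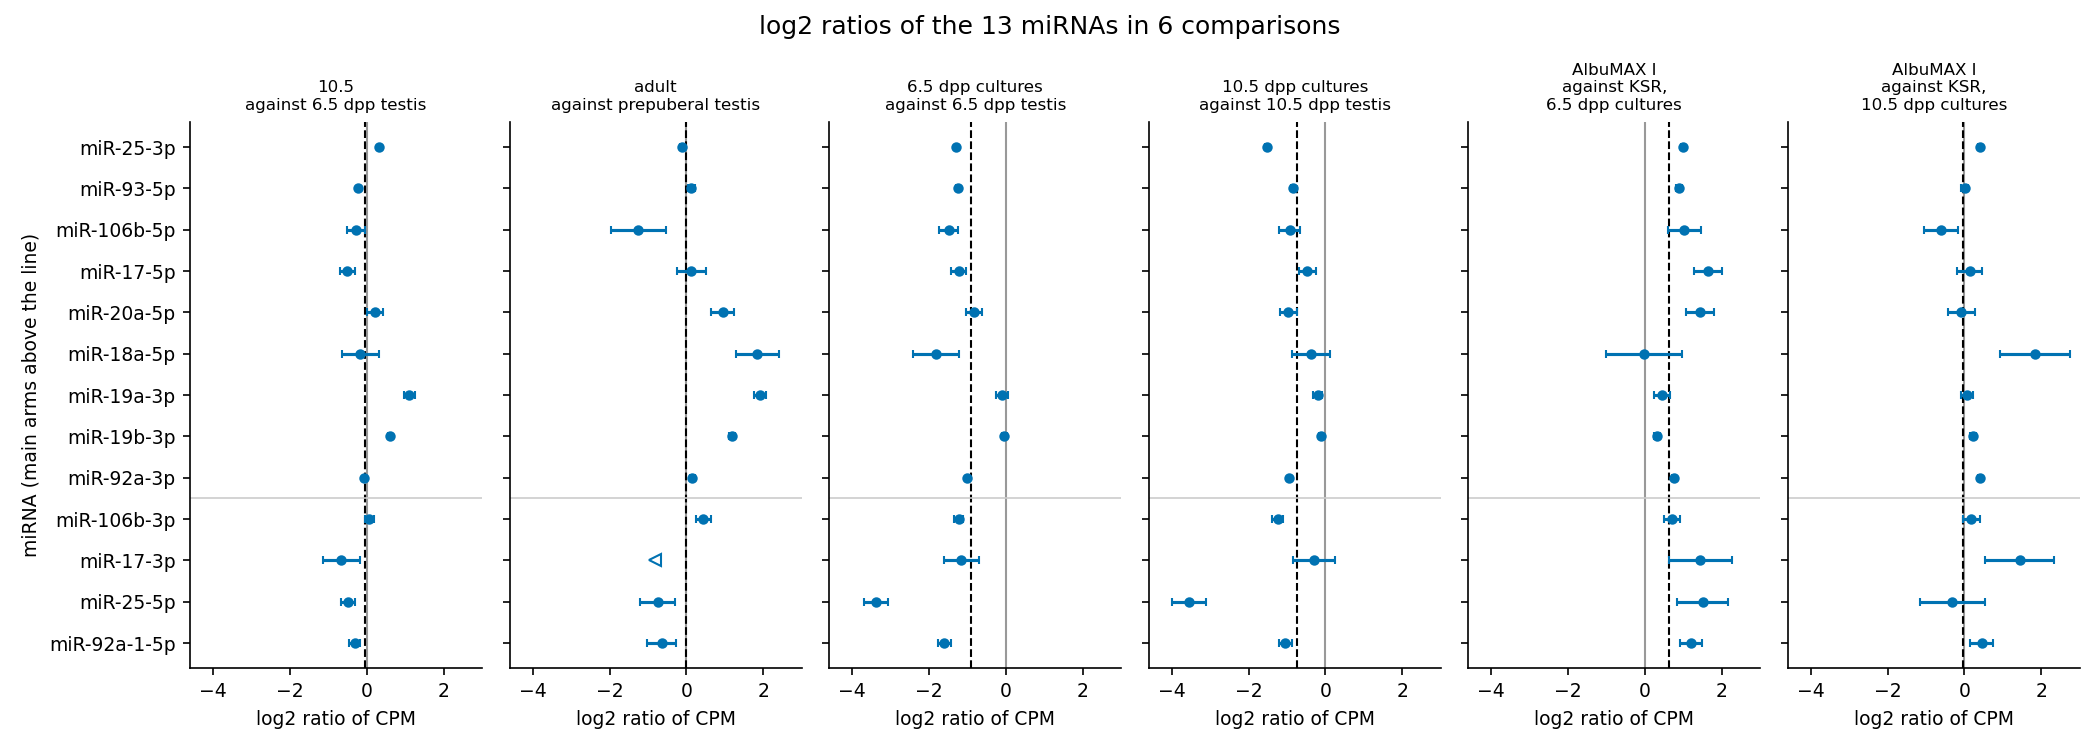
Log2 ratio of CPM of each member in 6 comparisons, with 95% intervals of counting error and, as dashed lines, the median of all miRNAs with reads in each library. The open triangle is miR-17-3p, listed at 0 in TAD and taken as 5 reads there. Both miR-19 points lie to the right of the dashed line in the 2 panels on cultures against starting testis, and miR-25-5p lies far to the left (-3.38 and -3.55).

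Summed by seed, the contrast between the families was plain. The family of miR-25-3p and miR-92a-3p summed to 2955, 3304 and 3142 CPM in T6, T10 and TAD, but to 938 (T6-12K), 1708 (T6-12A), 1171 (T10-12K) and 1548 (T10-12A) in culture. The 4 members of the miR-17-5p seed family summed to 705, 607 and 724 CPM in the uncultured libraries and to between 204 and 395 in culture. In both families the cultures did not overlap the uncultured testes. The sum of miR-19a-3p and miR-19b-3p was 340, 545 and 1105 CPM in T6, T10 and TAD, and 292, 366, 461 and 526 in the cultures, so that the cultures overlapped the prepuberal testes and were all below the adult. In CPM, 8 of the 13 members were lower in all 4 cultures than in all 3 uncultured libraries, as were 20.8% of all miRNAs. The exceptions were miR-106b-5p, miR-18a-5p, miR-19a-3p, miR-19b-3p and miR-17-3p. Against T6 and T10 alone, 9 of the 13 were lower in all 4 cultures, miR-106b-5p being added, as were 57.7% of all miRNAs. TAD held the highest CPM of the 7 libraries for 7 members (miR-93-5p, miR-20a-5p, miR-18a-5p, miR-19a-3p, miR-19b-3p, miR-92a-3p and miR-106b-3p) and for 29.3% of all miRNAs.

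Against the adult testis, in turn, the cultures were lower by 2-fold in every pair for 5 members, miR-20a-5p, miR-18a-5p, miR-19a-3p, miR-106b-3p and miR-25-5p, and higher for 0. The background was 23.0% lower and 7.67% higher. The largest difference was that of miR-18a-5p, whose mean in culture was 6.97-fold lower (-2.80, -3.39 to -2.22). miR-19a-3p was 4.23-fold lower (-2.08, -2.23 to -1.93), though its sign, like those of miR-20a-5p and miR-106b-3p, turned when reads were compared without scaling, though not at the finer step for TAD (-1.25, -0.95 and -0.78). The median of the members was -1.28 and that of all miRNAs -0.41. The comparison shares the cultured libraries with those above, and TAD is shared with the comparison of adult and prepuberal testes.

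Both supplements were then compared at each starting age. In the 6.5 dpp cultures, AlbuMAX I gave higher CPM than KSR for 12 of 13 members, of which miR-19a-3p and miR-19b-3p turned with the scaling, and 6 reached 2-fold (miR-17-5p, miR-20a-5p, miR-106b-5p, miR-17-3p, miR-25-5p and miR-92a-1-5p) while 0 were lower. Of all miRNAs 27.4% were higher by this measure and 5.92% lower. miR-17-5p was the furthest apart, at 25.2 CPM against 8.05, or 3.13-fold (log2 1.65, 1.29 to 2.01), and miR-20a-5p was 2.69-fold higher. miR-25-3p at 1.98-fold and miR-93-5p at 1.84-fold fell just below the threshold. The median of all miRNAs in this comparison was itself 0.63, and that of the members 0.98. Higher CPM with AlbuMAX I was therefore usual among the listed miRNAs and not particular to the members. Under median-of-ratios and under TMM scaling only 1 member reached 2-fold, and 11.2% and 10.9% of all miRNAs did. T6-12K held the lowest CPM of the 7 libraries for 11 of the 13 members, as it did for 32.3% of all miRNAs.

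In the 10.5 dpp cultures the supplements differed less. Only miR-18a-5p, with 51 reads against 12, and miR-17-3p, with 42 against 13, reached 2-fold, at 3.56-fold (1.83, 0.92 to 2.74) and 2.70-fold (1.44, 0.54 to 2.33) higher with AlbuMAX I. The background was 5.64% in either direction. miR-25-3p and miR-92a-3p were both 1.32-fold higher with AlbuMAX I. For miR-93-5p the log2 ratio was 0.0023 (-0.082 to 0.087), for miR-17-5p 0.14 (-0.18 to 0.47) and for miR-20a-5p, whose sign turned with the scaling, -0.09 (-0.44 to 0.27). These intervals cover counting error alone and do not show that the supplements act alike.

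The other arms were read as a check on the hairpins. Both arms of a hairpin come from the same precursor in equal number. The reads of the less abundant arm per 100 of the more abundant were therefore compared, a measure free of scaling that was chosen after the values had been seen. The hairpin of miR-25 stood apart. It is printed from 5′ to 3′ on the minus strand of chromosome 5 (chr5:138165321-138165404, GRCm38.p6), with miR-25-5p and then miR-25-3p in capitals.
Mir25: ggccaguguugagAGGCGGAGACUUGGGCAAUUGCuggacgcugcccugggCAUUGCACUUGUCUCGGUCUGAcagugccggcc

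miR-25-5p had 644 reads in T6 and 459 in T10, 24 (T6-12K), 74 (T6-12A), 23 (T10-12K) and 22 (T10-12A) in culture, and 40 in TAD. Per 100 reads of miR-25-3p this made 2.91 in T6 and 1.66 in T10, 0.531 (T6-12K), 0.761 (T6-12A), 0.528 (T10-12K) and 0.320 (T10-12A) in culture, and 1.42 in TAD. All 4 cultures lay below all uncultured libraries, and the nearest intervals, those of T6-12A (0.605 to 0.956) and TAD (1.04 to 1.94), did not touch. Against the starting testis the ratio was 5.48-fold lower with KSR and 3.82-fold with AlbuMAX I at 6.5 dpp, and 3.14-fold and 5.17-fold at 10.5 dpp. So miR-25-5p was lower in culture beyond the lower level of its partner arm.

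Among hairpins with both arms above 0, 11 of 67 (16.4%) had an arm ratio lower by 2-fold in both 6.5 dpp cultures, and 6 of 65 (9.23%) in both 10.5 dpp cultures. Only 3 of 63 (4.76%) did so in all 4 cultures, namely those of miR-25, miR-342 and miR-409. Ranked by the mean log2 change from the lowest, miR-25 was at position 5 of 67 and 2 of 65. Over all these hairpins the median change was -0.38 at both ages, so a lower share of the minor arm in culture was common, though smaller.

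The other 3 hairpins with both arms listed did not share this. For miR-92a-1-5p the ratio to miR-92a-3p was 5.00 per 100 in T6 and 4.22 in T10, 2.69 (T6-12K), 3.69 (T6-12A), 3.87 (T10-12K) and 3.97 (T10-12A) in culture, and 2.65 in TAD. Since miR-92a-3p is also encoded on chromosome X, this ratio was not that of a single hairpin. It was lower beyond counting error in both 6.5 dpp cultures, by 1.86-fold and 1.35-fold, and within counting error of T10 in both 10.5 dpp cultures. The miR-17 hairpin had between 9.85 and 24.1 reads of miR-17-3p per 100 of miR-17-5p in the 6 libraries with reads of both, and miR-17-3p was listed at 0 in TAD, where up to 4 reads may have gone unlisted.

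In miR-106b the 3p arm was the more abundant in every library, although the 5p arm carries the seed shared with miR-17-5p. miR-106b-3p stood at 95.8 CPM in T6 and 100.0 in T10, 31.1 (T6-12K), 50.5 (T6-12A), 39.6 (T10-12K) and 44.7 (T10-12A) in culture, and 133 in TAD. There were 27.0 reads of miR-106b-5p per 100 of miR-106b-3p in T6 and 21.2 in T10, and 19.4 (T6-12K), 24.4 (T6-12A), 33.9 (T10-12K) and 19.6 (T10-12A) in culture, but 7.37 in TAD (4.44 to 12.3). The ratio in TAD was 3.66-fold below T6 and 2.87-fold below T10, beyond counting error. Of the cultures, T6-12K was lower than T6 and T10-12K higher than T10 beyond counting error, and T6-12A and T10-12A were within it. Among hairpins with both arms above 0 in both libraries, the change in TAD was at position 5 from the lowest of 50 against T6 and 5 of 51 against T10. Both arms were listed for 72 hairpins, and those with an arm at 0 in TAD, such as miR-17, were left out. Some of them may have fallen further, so the position is uncertain.

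**Figure D4:**
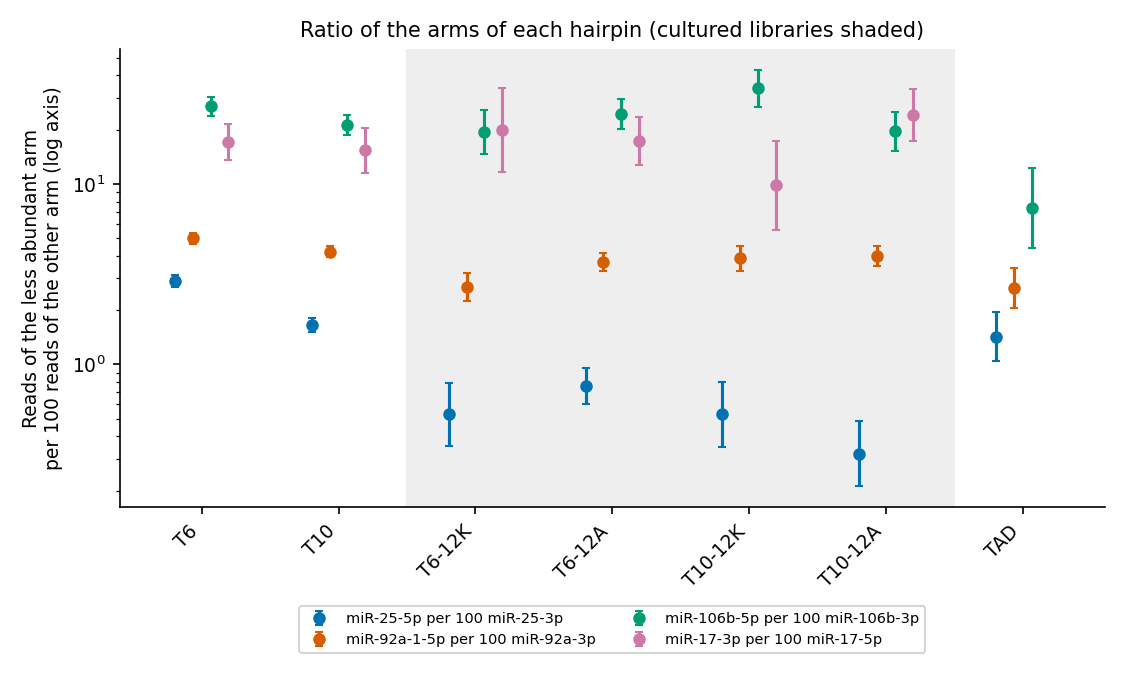
Reads of the less abundant arm per 100 reads of the more abundant arm of 4 hairpins (log axis), with 95% intervals of counting error and the cultured libraries shaded. The miR-25 series falls from 2.91 and 1.66 in T6 and T10 to between 0.320 and 0.761 in culture, and the miR-106b series is lowest in TAD at 7.37. Reads of miR-92a-3p include those from its copy on chromosome X.

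Other miRNAs were set beside the members. Over the 7 libraries, the miRNAs of other hairpins most like miR-25-3p in log2(CPM + 1), among 120 candidates averaging 100 CPM or more, were miR-30e-5p (r = 0.986), miR-92a-3p (0.980) and miR-93-5p (0.959), then miR-340-5p (0.948) and miR-298-5p (0.947). For miR-92a-3p they were led by miR-25-3p and miR-93-5p (0.971), and for miR-93-5p by miR-872-5p (0.980) and miR-3470b (0.978). For miR-19b-3p, in contrast, they were miR-192-5p (0.946), miR-881-3p (0.942), miR-743b-3p (0.909), miR-470-5p (0.902), then miR-203-3p, and no other member was among them. miR-881-3p, miR-743b-3p and miR-470-5p are miRNAs of an X-linked group known for its expression in the testis. With 7 points that share 1 scale, these correlations are descriptions.

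Of the miRNAs of other genes with the seed of miR-25-3p, 2 of 4 were listed, and their mature sequences are printed to show the shared seed, in capitals.
miR-92b-3p: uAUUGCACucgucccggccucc
miR-32-5p: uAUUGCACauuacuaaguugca

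miR-92b-3p stood at 73.5 CPM in T6 and 97.0 in T10, 41.9 (T6-12K), 92.9 (T6-12A), 56.1 (T10-12K) and 93.9 (T10-12A) in culture, and 166 in TAD. Unlike miR-92a-3p, its AlbuMAX I cultures overlapped the uncultured testes. miR-32-5p had at most 10.7 CPM and was listed at 0 in TAD. Neither was 2-fold lower in both cultures of either starting age. Of 8 miRNAs of other genes with a seed like that of miR-17-5p, only miR-295-3p, best known from embryonic stem cells, was listed. It ranged from 3.42 CPM in T6-12K to 30.1 CPM in TAD.

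Markers of other cell types were set beside these differences. The 6 miR-34 and miR-449 miRNAs listed for germ cells from meiosis on summed to 74.0 CPM in T6 and 164 in T10, 614 (T6-12K), 1499 (T6-12A), 1972 (T10-12K) and 1843 (T10-12A) in culture, and 25799 in TAD. This order and that of miR-19a-3p per 100 miR-92a-3p had T6 lowest and TAD highest, with T10-12K and then T10-12A next below TAD. The order of T10, T6-12K and T6-12A differed. T10 was below every culture in the sum, but in the ratio it was above T6-12K and T6-12A (7.44 against 7.01 and 5.68). The part of cell composition in the differences of the miR-19 pair was not tested. Of 5 erythroid miRNAs, miR-451a and miR-144-3p, which mark red cells, were at 0 in all 4 cultures and at no more than 8.98 CPM elsewhere. The summed level of the 5 rested on miR-486a-5p and miR-486b-5p and ranged from 887 CPM in T6-12A to 5125 CPM in T6-12K, against 2216 to 3364 CPM in the uncultured libraries. miR-486a-5p and miR-486b-5p had almost equal reads in every library (22418 and 22311 in T6, 1796 each in TAD). The sum may therefore count the same reads more than once. The 2 of 5 leukocyte miRNAs listed summed to between 5.54 and 10.2 CPM in culture, 10.8 and 12.2 CPM in T10 and T6 and 45.4 CPM in TAD, and miR-150-5p was at 0 in 3 cultures. Endothelial miR-126a arms summed to 124 to 249 CPM in culture and to 181 to 405 CPM without. The gonadal somatic miR-202 arms were found in all 7 libraries, at 93.7 to 234 CPM. What these cell types contributed to the members was not tested.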

How the data were processed

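Small RNA of 7 testis libraries, 1 per condition, was analysed. The authors trimmed the reads, checked them with FastQC, aligned them with Bowtie to mm10 and to miRBase, and discarded miRNAs under 50 reads. HTSeq and DESeq are named in the submitters' processing notes. The deposited signal is reads per miRNA divided by 1 factor per library, where the design had allowed for read counts. The worth of 1 read (0.615 to 3.19) was estimated as the largest number of which low values are whole multiples. Below 10000 reads, 100% of values were then whole within 0.006 deposited units. In TAD the step 3 times finer (1.06) gives whole numbers too, all of them multiples of 3, and was tried for unscaled reads after seeing the data.

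CPM were computed over the 331 listed miRNAs. Values at 0 were taken as 5 reads in ratios. Wilson intervals of CPM and log-scale intervals of ratios (95%) cover counting error only, since PCR copies are not independent molecules. No test was made, because no condition had a replicate. A miRNA was counted as higher or lower if it met 2-fold in every pair of libraries compared. Alternatives were unscaled reads, the values as deposited, median-of-ratios size factors, TMM scaling (trimmed mean of log ratios, cutting 30% of ratios and 5% of mean levels), CPM without miR-10b-5p, a 1.5-fold threshold, a pseudocount of 1 CPM, and a mean of at least 100 CPM. The procedures were tested on simulated data. The members and lists were chosen with earlier results of these data known. Named beside the members were the 5 miRNAs of other hairpins most correlated with each main arm averaging 100 CPM or more, relatives by seed or cluster, and marker lists. Overlapping genes are from GENCODE on GRCm38. The work was done in Python 3.11.15 with scipy 1.17.1, pandas 2.3.3, numpy 2.4.6 and, for plots, matplotlib 3.10.9. The piRNA reads and the RT-qPCR of the study were not analysed here.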

Additional observations from a re-analysis of the deposited data

Results flagged for a closer look

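miR-106b-5p differed between the starting ages in its response to the supplement. In the 6.5 dpp cultures it had 133 reads with AlbuMAX I and 60 with KSR, a log2 ratio of CPM of 1.03 (95% interval of counting error from 0.59 to 1.47). In the 10.5 dpp cultures it had 74 reads with AlbuMAX I and 95 with KSR, a log2 ratio of -0.62 (-1.06 to -0.18). The 6.5 dpp ratio minus the 10.5 dpp ratio was 1.65, and it drew attention because the libraries moved in opposite directions beyond counting error at the 2 ages. The difference was not tested, since each culture was sequenced once. Relative to the median of all miRNAs in each comparison the ratios were 0.40 and -0.59. Its partner arm miR-106b-3p had log2 ratios of 0.70 and 0.18.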

How the results depend on the processing

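Counts of members past 2-fold depended on the scaling, as did the share of all miRNAs, given in parentheses. Unscaled reads keep the difference in depth between libraries, which therefore entered each of their ratios. At the step of 3.19 for TAD, listed reads were 1628770 in TAD against 13363593 in T6 and 13397407 in T10. For the other settings the cause was not tested. Reads compared directly gave 0 higher (4.83%) and 12 lower (85.8%) in the adult against the prepuberal testis, 7 lower (43.0%) in the 6.5 dpp and 9 (64.7%) in the 10.5 dpp cultures, and 3 higher (55.5%) and 0 lower (3.99%) in cultures against adult. The sign of 5 ratios past 2-fold in CPM turned there, those of miR-18a-5p (-1.20) and miR-19a-3p (-1.13) in the adult and of miR-20a-5p (0.64), miR-19a-3p (0.33) and miR-106b-3p (0.80) in cultures against adult. With the finer step of 1.06 for TAD, chosen after seeing the data, these were 0.39, 0.45, -0.95, -1.25 and -0.78, none of them turned, and the counts were 0 higher (6.34%) and 8 lower (63.1%) in the adult and 1 higher (29.8%) and 0 lower (9.20%) in cultures against adult. The values as deposited gave 1 higher (8.76%) and 4 lower (47.4%) in the adult, 7 lower (45.3%) in the 10.5 dpp cultures and 3 lower (14.4%) in cultures against adult. Median-of-ratios size factors gave 4 higher (19.0%) and 0 lower (26.6%) in the adult, 1 lower at each culture age (15.2% and 18.7%) and 1 higher (11.2%) with AlbuMAX I at 6.5 dpp. TMM scaling gave 1 lower at each culture age (13.6% and 18.7%), 1 higher (10.9%) with AlbuMAX I at 6.5 dpp and 1 lower (10.7%) in cultures against adult. CPM without miR-10b-5p gave 2 lower (25.2%) in the 6.5 dpp cultures and 3 lower (15.6%) in cultures against adult. At 1.5-fold there were 2 higher (20.2%) and 1 lower (13.5%) in T10 against T6, 4 higher (23.3%) in the adult, 10 lower (47.6%) in the 6.5 dpp and 8 (50.5%) in the 10.5 dpp cultures, 10 higher (52.6%) with AlbuMAX I at 6.5 dpp and 1 lower (15.0%) at 10.5 dpp, and 9 lower (32.5%) in cultures against adult. A pseudocount of 1 CPM gave 2 lower (35.0%) in the adult and 1 higher (17.2%) in cultures against adult. Among the 4 members that averaged 100 CPM or more, 1 was lower in the 10.5 dpp cultures, and there were 0 higher in T10, 0 higher and 0 lower in the adult, 0 lower in the 6.5 dpp cultures, 0 higher with AlbuMAX I at either age and 0 lower in cultures against adult. The share over the 121 miRNAs at that level is not given here, so these counts cannot be read against a background. The member hairpins with a lower arm ratio in culture numbered 1 of 4 at each age at 1.5-fold, with a pseudocount of 1 CPM and with at least 50 reads of the less abundant arm, alternatives chosen after seeing the data. At 2-fold, 16.4% of hairpins with both arms above 0 were lower in the 6.5 dpp cultures and 9.23% in the 10.5 dpp cultures. Their shares under the alternatives are not given here. Depth limited miR-18a-5p, miR-25-5p and miR-17-3p most, each with fewer than 50 reads in 4 or 5 libraries. No paired analysis was possible because each condition had 1 library.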
